A study of Mus musculus with 3 samples.

Results

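Apolipoprotein E (Apoe), clusterin (Clu), cystatin C (Cst3), Mfge8, Sparcl1, Sparc, Htra1, Thbs4 and Cxcl14 are 9 genes for proteins that glial cells secrete. They were taken by name, out of 27998 genes in the count tables, and all 9 were present and annotated as protein coding. Their transcripts were measured by droplet single-cell RNA sequencing of cells from the lateral wall of the lateral ventricle (the subventricular zone) of adult mice, where neural stem cells lie beneath the ependyma. All cells carried aSMACreERt2::Rosa26-tdTomato, a tamoxifen-dependent Cre under the smooth muscle actin promoter that turns on the red reporter tdTomato, and the Sox2-GFP knock-in B6;129S-Sox2tm2Hoch/J, on a mixed background of C57/Bl6(3/4) and 129S1SvlmJ(1/4). One library held cells sorted as positive for both tdTomato and GFP (1200 sorted cells), and 2 libraries held cells sorted as GFP-positive and tdTomato-negative (1200 and 6000 sorted cells). The labels give 5 mice in all and do not say which library came from which animal. The spread behind every p-value below may thus be technical. In the main comparisons of classes it is the spread between summed cells after differences shared by a whole library are taken out. Between gates it comes from the 2 tdTomato-negative libraries. The tdTomato-positive group has 1 library and no replicate.

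Apoe and clusterin are the main lipid-carrying apolipoproteins made within the brain. Astrocytes are the chief source of apolipoprotein E, which is loaded with lipid by ABC transporters and taken up by receptors of the LDL receptor family; clusterin is also an extracellular chaperone. Cystatin C inhibits cysteine cathepsins, and Mfge8 bridges phosphatidylserine on dying cells to integrins on phagocytes. Sparcl1 (hevin), Sparc and Thbs4 are matricellular proteins, of which hevin and thrombospondins act on synapse formation and Sparc counteracts hevin. Htra1 is a secreted serine protease that cleaves matrix proteins and restrains TGF-beta family signals, and Cxcl14 is a chemokine.

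The tables held 314, 259 and 1127 cell barcodes in the tdTomato-positive library and in tdTomato-negative libraries 1 and 2, of which 252, 256 and 1121 were kept (at least 300 genes and at most 25% mitochondrial counts). The kept cells held 720340, 926246 and 3585917 unique molecular identifiers (UMIs, each a tag for 1 captured transcript). The median depth per kept cell was 2535, 2639.5 and 2401 UMIs. The tdTomato-positive library stood apart: its median mitochondrial share was 8.27%, against 3.22% and 3.38%, and 62 of its barcodes were left out, against 3 and 6. Those 62 barcodes carried Apoe at 17734 and Clu at 6411 CPM (counts scaled to the same total for each set of cells), above the 6414 and 2149 of the kept cells of the same library. Up to 2 barcodes were shared by a pair of libraries.

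Cells were clustered on genes that did not include the 9, and clusters were named from marker lists. The clusters used below were ependymal-like (235 cells, of which 177 came from the tdTomato-positive library), astrocyte-like (215 cells, 15 of them tdTomato-positive), oligodendrocyte-like (38), OPC-like (oligodendrocyte precursor, 68), transit-amplifying-like (248), neuroblast-like (179), neuron-like (288), endothelial-like (20) and microglia-like (14). The last 2 came from the tdTomato-positive library alone. The neuron-like name rests on 1 marker (Meg3) among the leading genes, with 4 neuron markers 2-fold higher. Whether these cells are mature neurons was not tested. With finer clusters (resolution 2.0) the OPC-like cluster held 50 cells. There, 18 cells with Enpp6 and Bcas1 among their leading genes formed a separate oligodendrocyte-like cluster. Whether newly forming oligodendrocytes are among the 68 OPC-like cells was not tested. A further 250 cells, with neuroblast and neuron markers in equal number among their leading genes, stayed unnamed. Another cluster of 66 cells, with 12 and 53 cells in tdTomato-negative libraries 1 and 2 and 1 tdTomato-positive cell, had the highest level of Gfap, the intermediate filament of astrocytes and of adult neural stem cells. It is called the Gfap-rich cluster here because no marker list led it. All 15 astrocyte markers were detected in it, at a summed level of 15827 and 12666 CPM in its 2 libraries, against 19155 to 21029 in astrocyte-like cells. Levels below are CPM, the UMIs of a gene in the summed cells of a class in a library after scaling to the same total, for classes with at least 10 cells; they are not scaled by gene length. Where a class has 3 values, they are those of the tdTomato-positive library and of tdTomato-negative libraries 1 and 2, in that order; where a neural class has 2, they are those of the tdTomato-negative libraries, except that oligodendrocyte-like cells had values in the tdTomato-positive library and in tdTomato-negative library 2.

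The 9 genes took 6.55% of all UMIs of the Gfap-rich cluster, 4.51% in astrocyte-like cells and 1.28% in ependymal-like cells. They took 0.140% in neuroblast-like and 0.164% in neuron-like cells, which were the lowest shares among the named classes. Microglia-like cells reached 5.82%, of which Cst3 was 93.0%. The makeup of that share also differed: Apoe gave 58.0% and Clu 20.5% of it in ependymal-like cells, against 42.3% and 9.52% in astrocyte-like cells. By mean level over libraries, Mfge8, Htra1 and Cxcl14 were highest in astrocyte-like cells, Apoe, Clu, Sparcl1 and Thbs4 in the Gfap-rich cluster, and Cst3 and Sparc in microglia-like cells.

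**Figure D1:**
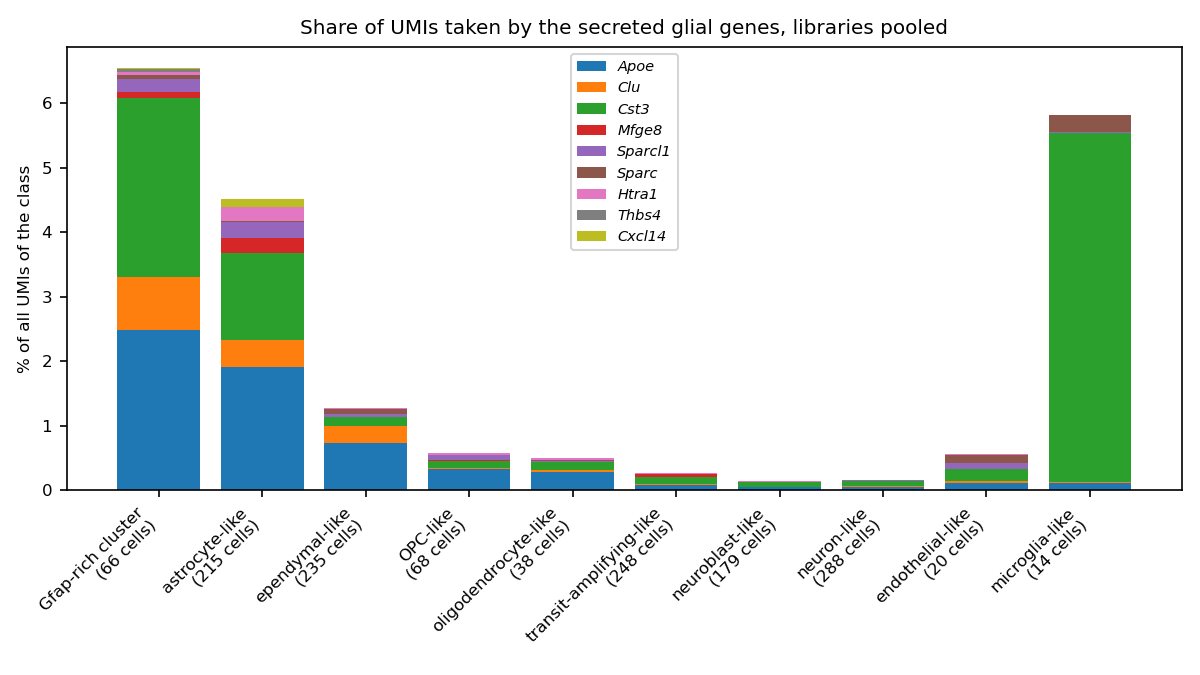
Share of all UMIs (in percent, vertical axis) taken by the 9 genes in each class of cells, with the libraries pooled; each colour is 1 gene. The bar is highest in the Gfap-rich cluster (6.55%), and the microglia-like bar (5.82%) is almost wholly Cst3.

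Apoe lies on chromosome 7 at 19696109 to 19699188 (GRCm38, minus strand) and Clu on chromosome 14 at 65968483 to 65981547 (plus strand). Apoe reached 26450 and 24692 CPM in the Gfap-rich cluster of tdTomato-negative libraries 1 and 2. In astrocyte-like cells it was 9914 among tdTomato-positive cells, then 17006 and 20074 among tdTomato-negative cells, and in ependymal-like cells 6972, 7052 and 8994. These 3 ranges did not overlap, with the Gfap-rich cluster highest. Oligodendrocyte-like (3599 and 2960) and OPC-like cells (1457 and 3844) came next, overlapping each other, and neuroblast-like cells were at 467 and 477. The 4 oligodendrocyte-like cells of tdTomato-negative library 1, too few for a sum, held 1 UMI of Apoe (79.2 CPM).

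Clu ran in the same order at a lower level: 9892 and 7849 in the Gfap-rich cluster, then 2337, 3920 and 4497 in astrocyte-like cells. Ependymal-like cells, at 2421, 3537 and 3051, overlapped the astrocyte-like ones. No other class of at least 10 cells passed 335.2 in a library, whereas Apoe reached 3844 in OPC-like cells. Across the 20 sums of a class in a library, the gene with the pattern closest to Apoe among 1691 compared was Clu (Pearson r = 0.938 of log2(CPM + 10)), followed by Mt1 and Cd63. The closest to Clu were Prdx6 (0.956), Mlc1 and Cpe. These sums share libraries and classes, so the values describe the pattern only.

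Within astrocyte-like and ependymal-like cells, single cells with more Apoe also held more Clu. Among 207 astrocyte-like cells the Spearman correlation was 0.72, and 0.62 after each cell was thinned to 1000 UMIs; Apoe with Cst3 gave 0.75 and 0.69. In tdTomato-negative library 2 alone, Apoe with Clu gave 0.66 and 0.56 over 167 cells. Among 217 ependymal-like cells Apoe with Clu gave 0.70 and 0.54, and 0.50 and 0.41 over the 46 of tdTomato-negative library 2, while Apoe with Cst3 gave 0.30 and 0.27. In the Gfap-rich cluster Apoe with Clu gave 0.33 and 0.34 over 63 cells. Cells of 1 library share that library and its free RNA, so no p is given for these values.

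**Figure D2:**
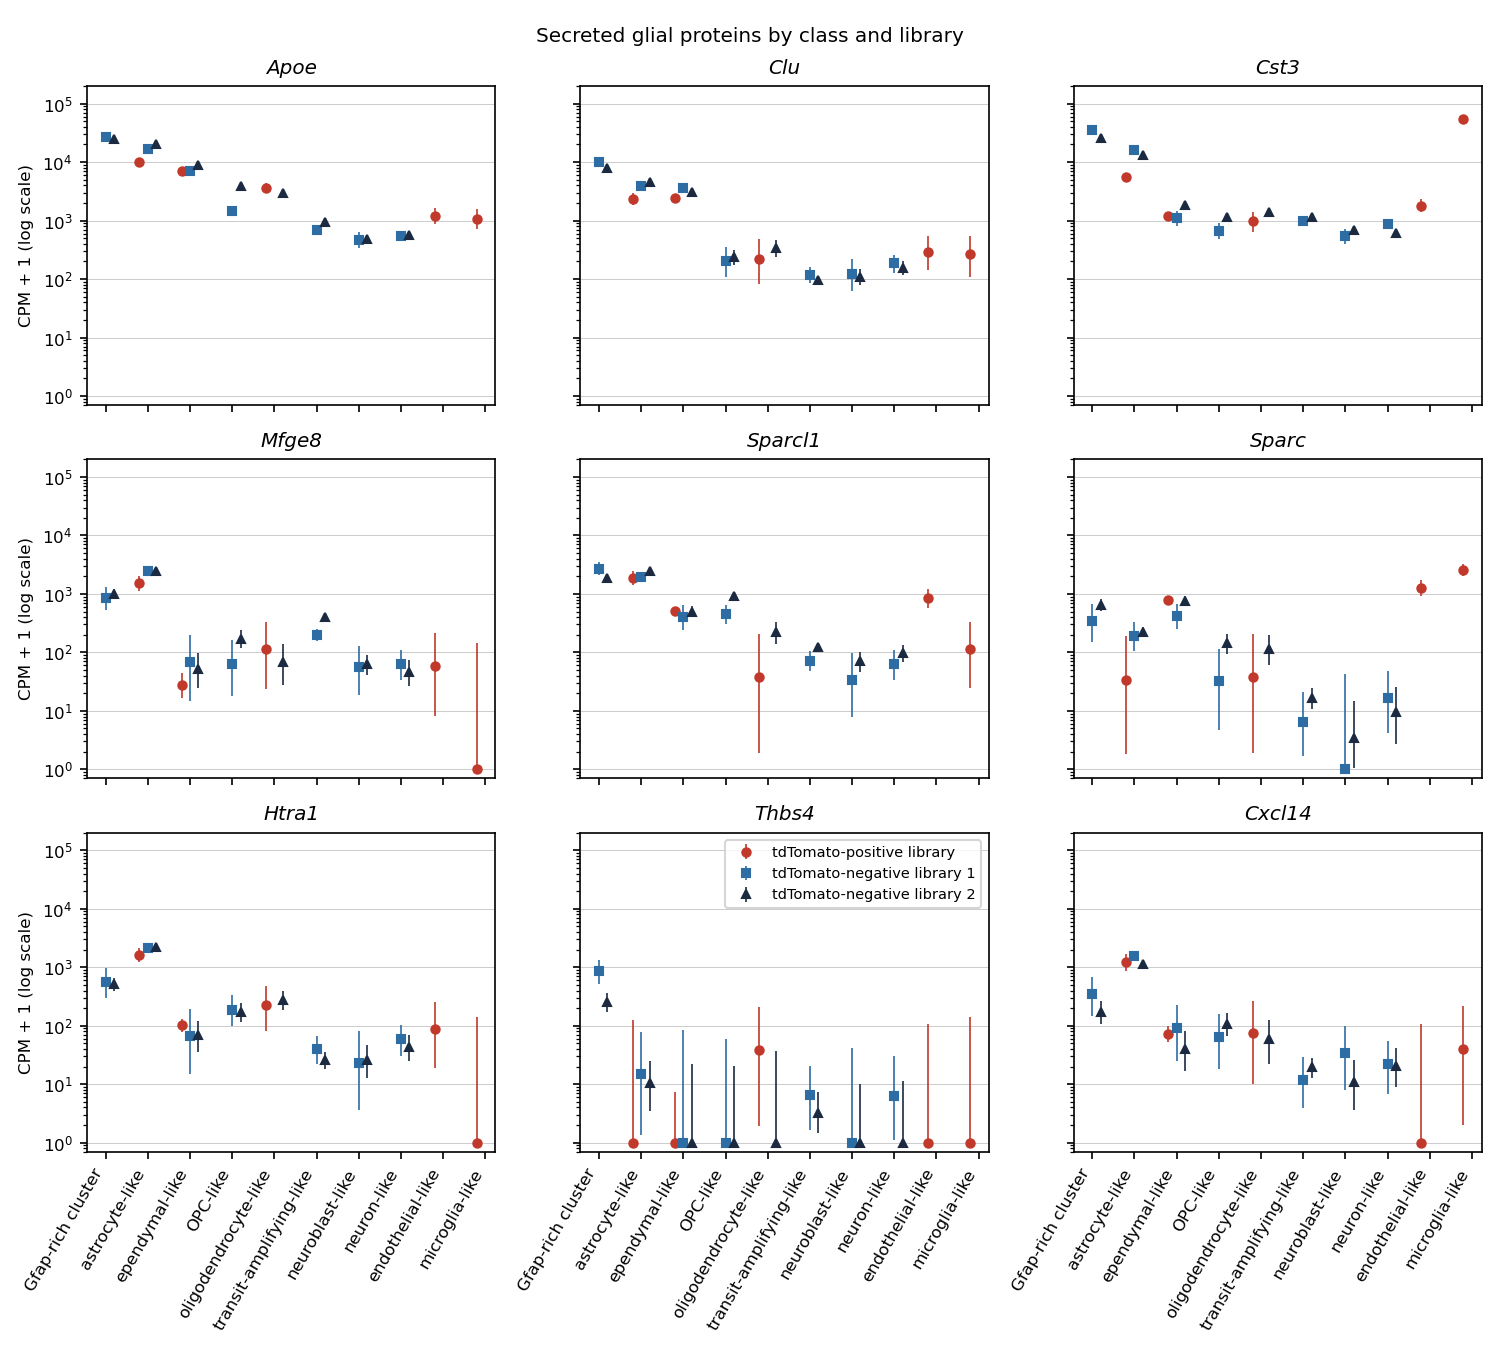
Level of each gene (CPM + 1, log scale) in each class of cells, with 1 point per library and bars for the exact 95% Poisson interval of the count, which covers counting error only. Apoe and Clu are highest in the Gfap-rich cluster, Mfge8, Htra1 and Cxcl14 in astrocyte-like cells, and Cst3 and Sparc in microglia-like cells.

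Cst3 (chromosome 2, 148871722 to 148875692, minus strand) was at 35783 and 25803 CPM in the Gfap-rich cluster, 5541, 16206 and 13448 in astrocyte-like cells, and 1181, 1090 and 1825 in ependymal-like cells. The 14 microglia-like cells of the tdTomato-positive library held more, at 54093 (1414 UMIs, exact 95% Poisson interval 51310 to 56988). Ependymal-like cells overlapped oligodendrocyte-like cells (965 and 1418) and were thus not set apart for Cst3, unlike for Apoe and Clu. The closest patterns were Sat1 (r = 0.807), Ctsd and Ctsb, the last 2 being genes of lysosomal cathepsins.

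Mfge8 (chromosome 7, 79133768 to 79149060, minus strand) was highest in astrocyte-like cells, at 1535, 2471 and 2431 CPM. The Gfap-rich cluster held 860.2 and 1008, and transit-amplifying-like cells 197.8 and 395.8. Ependymal-like cells held 27.2, 66.7 and 50.9, in the range of neuroblast-like (55.6 and 61.5) and neuron-like cells (63.2 and 45). Htra1 (chromosome 7, 130936111 to 130985660, plus strand, with Fgfr2 on the other strand) gave 1636, 2167 and 2207 in astrocyte-like cells, 559.1 and 512.5 in the Gfap-rich cluster, and 100.3, 66.7 and 67.8 in ependymal-like cells. Cxcl14 (chromosome 13, 56288643 to 56296551, minus strand) gave 1235, 1560 and 1143 in astrocyte-like cells, 344.1 and 170.8 in the Gfap-rich cluster, and 71.4, 89.0 and 39.5 in ependymal-like cells. For these 3 genes the astrocyte-like range lay above every other class, with no overlap. The closest patterns were Plpp3 (0.904) for Mfge8 and Atp1b2 (0.894) for Cxcl14.

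The matricellular genes did not share a pattern. Sparcl1 (chromosome 5, 104079111 to 104113733, minus strand, with Gm26703 on the other strand) was at 2710 and 1879 CPM in the Gfap-rich cluster and 1869, 1946 and 2501 in astrocyte-like cells, which overlapped. Endothelial-like cells held 845, OPC-like cells 454.3 and 903.9, and ependymal-like cells 506.6, 400.4 and 497.2. Sparc (chromosome 11, 55394500 to 55423183, minus strand) was highest outside the astroglia, at 2601 in microglia-like and 1282 in endothelial-like cells. Ependymal-like cells followed, at 771.8, 422.7 and 762.7, overlapping the Gfap-rich cluster (344.1 and 640.6). Astrocyte-like cells held 33.4 (1 UMI), 193.3 and 224.0. In neuroblast-like cells 1 UMI of Sparc was counted in all.

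Thbs4 (chromosome 13, 92751590 to 92794818, minus strand) was the rarest, with 65 UMIs in all kept cells, of which 52 lay in the Gfap-rich cluster. Its level there was 860.2 CPM in tdTomato-negative library 1 (20 UMIs) and 256.2 in library 2 (30 UMIs). Astrocyte-like cells held 5 UMIs, at 13.8 and 9.33 in the tdTomato-negative libraries and 0 in the tdTomato-positive one. At least 1 UMI was found in 42.4% of Gfap-rich cells and in 1.4% of astrocyte-like cells, at median depths of 2143 and 2452 UMIs; after thinning to 1000 UMIs these shares were 25.4% and 0.483%. None of the 235 ependymal-like cells held a UMI, which allows a share of up to 1.28% of cells with a UMI, and none of the 179 neuroblast-like cells did, which allows up to 1.68%. The closest patterns were Gm10561 (0.754), Gfap (0.731) and C4b (0.718).

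The gap between the Gfap-rich cluster and astrocyte-like cells ran in opposite directions for different genes of the group. Clu, Cst3 and Sparc were higher in the Gfap-rich cluster, and Mfge8, Htra1 and Cxcl14 were lower. With edgeR's quasi-likelihood test and the library as a block, these 3 and 3 genes passed an adjusted p of 0.05, of 8 left when Thbs4 is set aside, where 3.09% and 2.99% of 3009 genes did in each direction (6.08% in all). Clu was at 8871 ± 1444 (SD, n = 2) against 3584 ± 1118 (SD, n = 3), a log2 difference of 0.83 ± 0.19 (SE, edgeR adjusted p = 0.000386). Cst3 differed by 0.92 ± 0.18 (edgeR adjusted p = 3.12e-05) and Sparc by 1.28 ± 0.26 (edgeR adjusted p = 7.66e-05). Thbs4 passed the filter on low counts only through its level in the Gfap-rich cluster (558.2 ± 427 CPM, n = 2, against 7.71 ± 7.04, n = 3), so it had to differ; its fitted difference of 4.96 ± 0.74 is given as a description.

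Htra1 was at 535.8 ± 33.0 (SD, n = 2) in the Gfap-rich cluster against 2003 ± 319 (SD, n = 3), a log2 difference of -2.28 ± 0.20 (edgeR adjusted p = 2.36e-27). Cxcl14 was lower by -2.84 ± 0.26 (edgeR adjusted p = 9.89e-25) and Mfge8 by -1.62 ± 0.18 (edgeR adjusted p = 1.02e-17). In single cells, 59.1% of Gfap-rich cells held a UMI of Htra1 against 96.3% of astrocyte-like cells (41.3% and 81.2% after thinning), and 28.8% against 87.9% held Cxcl14 (17.5% and 61.8%). In neuroblast-like cells, at a median of 2693 UMIs, these shares were 6.70% and 3.91%. Apoe differed by 0.35 ± 0.18 (edgeR adjusted p = 0.311) and Sparcl1 by -0.38 ± 0.15 (edgeR adjusted p = 0.145), and neither passed. For Sparcl1 the sign of the fit, which compares cells within libraries, is opposite to that of the mean levels over libraries. Those were 2294 ± 587 (SD, n = 2) against 2106 ± 345 (SD, n = 3). The 2 tdTomato-negative libraries disagreed: Sparcl1 was higher in the Gfap-rich cluster in library 1 and lower in library 2. Without tdTomato-negative library 1 the differences in Clu, Cst3, Mfge8 and Sparc no longer passed (edgeR adjusted p = 0.941, 0.727, 0.268 and 0.272, at 0.75, 0.94, -1.46 and 1.48), and without library 2 that in Sparc did not (0.767). With DESeq2, Cst3 and Sparc did not pass (adjusted p = 0.0539 and 0.18), and with the clusters built on the other set of genes Clu did not (0.52, edgeR adjusted p = 0.127). Summed OPC markers were at 2021 and 1845 CPM in the Gfap-rich cluster (5 and 10 of 15 detected) against 2650 to 2760 in astrocyte-like cells, and summed microglia markers at 0 and 42.7 against 55.2 to 200.3; their part in the result was not tested.

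**Figure D3:**
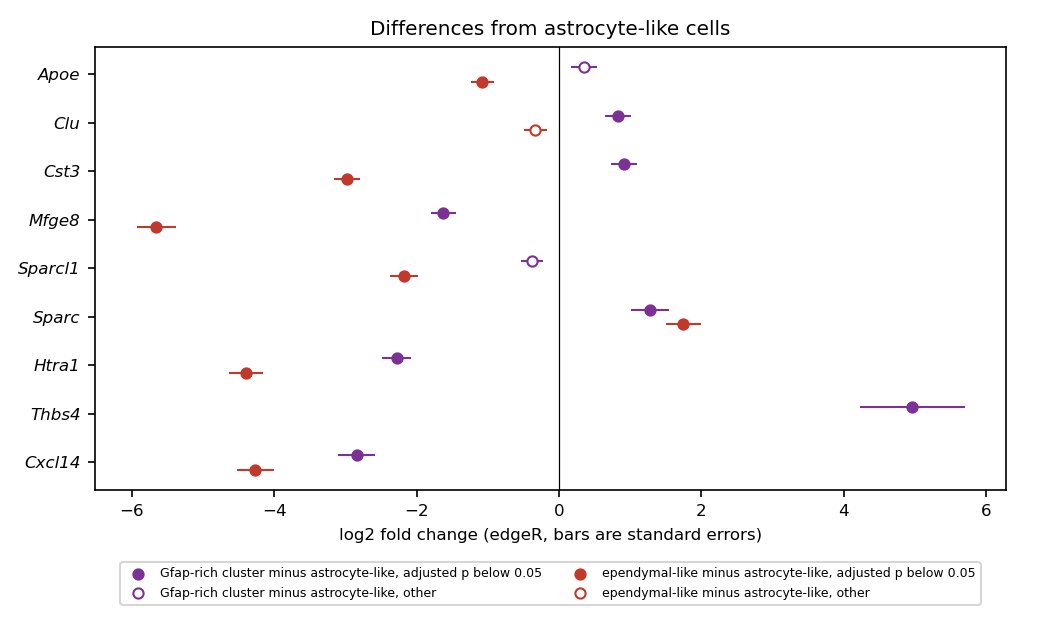
Difference of the Gfap-rich cluster and of ependymal-like cells from astrocyte-like cells (log2 fold change from edgeR, horizontal axis, bars are standard errors); filled points have an adjusted p below 0.05. Htra1, Cxcl14 and Mfge8 lie left of 0 in both, while Sparc lies right of 0 in both; both comparisons share the astrocyte-like sums, and the Thbs4 point is a description only.

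Other secreted glial proteins were also split between these cells. Of 25 such genes tested, 4 were higher and 11 lower in the Gfap-rich cluster, where 3.09% and 2.99% of all genes tested were, with a median log2 difference of -0.95 against -0.09 over all genes tested. Igfbp5, an insulin-like growth factor binding protein, was at 569.8 ± 75.9 (SD, n = 2) against 42.5 ± 37.8 (SD, n = 3), a difference of 2.97 ± 0.32 (edgeR adjusted p = 3.44e-18). Complement C4b differed by 2.69 and the Wnt antagonist Sfrp1 by 2.27. Vegfa, the vascular growth factor, was lower by -4.58 ± 0.67 (edgeR adjusted p = 1.67e-09), and Gpc6, a glypican that astrocytes release, by -3.16. Igfbp2 had 0 UMIs in the Gfap-rich sums against 346.6 ± 235 CPM (SD, n = 3) in astrocyte-like cells, and its difference is a description only.

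Lists of genes that act with the 9 proteins were set beside the 6.08% of all genes tested that passed there. Of 19 lipoprotein receptor and transport genes, Apoc1, an apolipoprotein encoded beside Apoe, was the 1 that passed, at 2.20 ± 0.70 (edgeR adjusted p = 0.0307). Of 13 genes for the clearance of dying cells, the receptor kinase Mertk was the 1 that passed, at -2.98 ± 0.64 (edgeR adjusted p = 0.0002). Cmtm5 (-0.89), 1 of 4 genes tested from a list of chemokines, their receptors and related genes, was lower. None of 13 cathepsin and cystatin genes and none of 8 Htra and TGF-beta genes passed.

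Promoter sequence is shown for the gene nearly limited to the Gfap-rich cluster, Thbs4, and for Mfge8 and Cxcl14, 2 of the 3 that were higher in astrocyte-like cells. Each is the 250 bases before the RefSeq start on the minus strand of GRCm38.p6, at chr13:92794819-92795068, chr7:79149061-79149310 and chr13:56296552-56296801 in that order. Capitals mark matches, on either strand, to TTGGC (the half-site of nuclear factor I) or TTCNNNGAA (the STAT palindrome); TATAAA was searched as well.
Thbs4: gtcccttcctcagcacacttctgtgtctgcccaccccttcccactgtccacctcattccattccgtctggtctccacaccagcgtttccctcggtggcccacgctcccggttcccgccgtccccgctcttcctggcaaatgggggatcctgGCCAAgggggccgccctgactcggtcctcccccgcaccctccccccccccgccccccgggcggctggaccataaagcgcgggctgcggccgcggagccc
Mfge8: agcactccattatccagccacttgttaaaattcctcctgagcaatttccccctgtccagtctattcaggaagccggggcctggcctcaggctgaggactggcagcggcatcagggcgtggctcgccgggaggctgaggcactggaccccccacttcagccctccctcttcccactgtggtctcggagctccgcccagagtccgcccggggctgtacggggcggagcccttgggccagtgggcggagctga
Cxcl14: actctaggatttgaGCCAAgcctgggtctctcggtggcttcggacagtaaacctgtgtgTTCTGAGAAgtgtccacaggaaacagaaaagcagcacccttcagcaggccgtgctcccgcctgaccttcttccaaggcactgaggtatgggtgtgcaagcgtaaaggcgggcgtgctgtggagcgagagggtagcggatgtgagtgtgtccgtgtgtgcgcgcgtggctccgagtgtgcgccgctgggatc
The Thbs4 window held 1 TTGGC match, 99 bases before the start, the Cxcl14 window 1 TTGGC and 1 TTCNNNGAA match, and the Mfge8 window none. Over 32851 RefSeq promoter windows of the same length, 41.5% held TTGGC, 7.02% TTCNNNGAA and 12.4% TATAAA. The 3 windows were rich in G and C, at 70.8% for Thbs4, 65.2% for Mfge8 and 59.6% for Cxcl14, against a median of 52.4% over all windows. The RefSeq table had an entry for 7 of the 9 genes.

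Ependymal-like cells were lower than astrocyte-like cells in Apoe, Cst3, Mfge8, Sparcl1, Htra1 and Cxcl14, and higher in Sparc. By edgeR's quasi-likelihood test, 6 of the 8 genes tested were lower and 1 was higher, where 13.2% and 17.3% of 3609 genes were (30.4% in all); Thbs4 did not pass the filter on low counts. The largest gap was in Mfge8, at 48.3 ± 19.9 CPM in ependymal-like cells (SD, n = 3) and 2146 ± 529 in astrocyte-like cells (SD, n = 3), a log2 difference of -5.66 ± 0.27 (edgeR adjusted p = 1.94e-91). Htra1 differed by -4.40 ± 0.24, Cxcl14 by -4.26 ± 0.26, Cst3 by -2.98 ± 0.18 and Sparcl1 by -2.17 ± 0.20. Apoe differed by -1.08 ± 0.16 (edgeR adjusted p = 9.43e-10). Clu differed by -0.33 ± 0.16 and did not pass (edgeR adjusted p = 0.121). Sparc was higher by 1.75 ± 0.25 (edgeR adjusted p = 3.71e-11). Without tdTomato-negative library 1 Apoe no longer passed (-0.67, edgeR adjusted p = 0.458), and without the tdTomato-positive library Clu passed (-0.57, edgeR adjusted p = 8.32e-05). Clu also passed with RLE scaling (-0.41, edgeR adjusted p = 0.00106) and with a stricter cell filter (-0.47, edgeR adjusted p = 0.0014).

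Genes that act with the 9 proteins differed between these 2 classes in both directions. Of all genes tested, 17.3% were higher and 13.2% lower in ependymal-like cells, so the lipoprotein and cathepsin counts below are a description only. Among 19 lipoprotein genes 4 were higher in ependymal-like cells and 4 lower: Pltp, which transfers phospholipids between lipoproteins, was at 995.9 ± 170 against 48.0 ± 45.5 CPM (log2 difference 5.14 ± 0.34), and the receptor Lrp2 was at 61.9 ± 27.6 against 0 UMIs. Lcat, which esterifies cholesterol on lipoproteins, was lower by -4.89 ± 0.58, and the receptors Lrp4 and Lrp1 by -2.48 and -1.75. Among 13 cathepsin and cystatin genes 2 were higher and 4 lower; Ctsh was at 190.4 ± 10.8 in ependymal-like cells and had 1 UMI in astrocyte-like cells, while Ctsf and Ctsd differed by -2.68 and -1.04. Of the clearance genes, Gas6, a ligand of Mertk, was higher by 2.81 ± 0.28, and Mertk had 0 UMIs in ependymal-like cells against 191.5 ± 27.3 in astrocyte-like cells. Of 26 other secreted glial proteins 19 were lower and 2 (Nenf and Timp2) higher, with a median of -1.78 against 0.03 over all genes. Cxcr4 was the chemokine receptor gene that was higher, with 62 UMIs against 1. Lrp2, Ctsh, Mertk and Cxcr4 had 0 or 1 UMI in the lower class. They could not pass the filter on low counts through that class, so their differences are a description only.

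Against neuroblast-like cells, all 8 genes tested were higher in astrocyte-like cells, 7 of 8 in ependymal-like cells and the same 8 in the Gfap-rich cluster. In those comparisons 18.3%, 21.6% and 12.6% of all genes were higher, and 16.1%, 15.9% and 12.2% lower (34.4%, 37.5% and 24.8% in all). Those comparisons share the neuroblast-like sums. The genes were chosen as ones that glial cells secrete, and with earlier results of these data known. Higher levels in glial classes than in neuroblast-like cells were thus likely from the choice itself. The counts of genes against neuroblast-like cells, here and below, are therefore a description and not a test of enrichment over all genes. Thbs4 entered the Gfap-rich fit only through that cluster, against 0 UMIs in neuroblast-like cells, so its result there (adjusted p = 0.281 with DESeq2) is not counted. For astrocyte-like cells the log2 differences ran from 4.5 ± 0.23 (Cst3) to 6.51 ± 0.33 (Htra1), leaving out Sparc, whose neuroblast-like sums held 1 UMI. In ependymal-like cells Clu was higher by 4.92 ± 0.27 and Apoe by 4.18 ± 0.24, but Cst3 by 1.53 ± 0.23, Htra1 by 2.11 and Cxcl14 by 2.22. Mfge8 differed by -0.13 ± 0.44 (edgeR adjusted p = 0.862). Htra1 and Cxcl14 in ependymal-like cells did not pass once either tdTomato-negative library was left out (edgeR adjusted p from 0.0708 to 0.378).

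Cells of the oligodendrocyte lineage carried Apoe above the level of neuroblast-like cells. Apoe was higher by 2.70 ± 0.26 in oligodendrocyte-like and 2.30 ± 0.24 in OPC-like cells (edgeR adjusted p = 7.51e-24 and 4e-20). By the same test 6 of 8 genes were higher in oligodendrocyte-like cells and 5 of 8 in OPC-like cells, where 10.1% and 13.2% of all genes were, and 11.6% and 10.6% were lower (21.6% and 23.8% in all). Htra1 and Sparc were higher in both classes, but the neuroblast-like sums held 1 UMI of Sparc, so the size of its difference is uncertain. Sparcl1 was higher by 3.42 ± 0.32 in OPC-like and 1.4 ± 0.47 in oligodendrocyte-like cells, and Mfge8 in neither. In the 6 genes of oligodendrocyte-like cells, removal of suspected doublets left 3, since Clu, Cst3 and Sparcl1 no longer passed, and leaving out tdTomato-negative library 1 or 2 left 3 or 1. In OPC-like cells leaving out those libraries left 3 or 2 of 5.

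Transit-amplifying-like cells were higher than neuroblast-like cells in Mfge8. Their name rests largely on genes of DNA replication and cell division, and whether dividing neuroblasts are among them was not tested. The level of Mfge8 was 296.8 ± 140 CPM (SD, n = 2), a log2 difference of 2.45 ± 0.31 (edgeR adjusted p = 5.44e-13). Apoe (0.87 ± 0.23) and Cst3 (0.85 ± 0.22) passed as well (edgeR adjusted p = 0.00235 and 0.00147), so 3 of 8 genes were higher, where 8.65% of all genes were (6.26% were lower, 14.9% passed in all). Apoe and Cst3 did not pass without the library as a block (edgeR adjusted p = 0.165 and 0.144) or with DESeq2 (adjusted p = 0.291 and 0.25). Mfge8 passed in both of those fits but not without tdTomato-negative library 1 (2.64, edgeR adjusted p = 0.0659) or library 2 (1.83, edgeR adjusted p = 0.685), where fewer sums entered the fit. A UMI of Mfge8 was found in 51.2% of transit-amplifying-like and 15.6% of neuroblast-like cells, at median depths of 6307 and 2693 UMIs; after thinning, the shares were 22.3% and 6.15%.

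Some of the low counts lie at the level that free RNA of the suspension can give. In neuroblast-like cells the 9 genes stood at a median of 0.144 and 0.104 of their level over all kept cells of tdTomato-negative libraries 1 and 2. Ependymal, oligodendrocyte and choroid plexus markers, which neuroblasts should lack, stood at medians of 0.121 and 0.134 with highest values of 0.542 and 0.519. None of the 9 genes lay above all of those markers, so the counts of Apoe in neuroblast-like cells, found in 72.1% of them (35.2% after thinning), are not set apart from background. In transit-amplifying-like cells Mfge8 stood at 0.611 and 0.788 of the library level, and Cst3 at 0.340 and 0.354, against marker medians of 0.159 and 0.139. The highest marker there was at 0.679 and 1.10, so Mfge8 was not above every marker; in library 2 the 1.10 was 1 of 2 choroid plexus markers, and the 14 ependymal and 15 oligodendrocyte markers reached at most 0.217 and 0.237. In oligodendrocyte-like cells of library 2 Apoe stood at 0.661, with ependymal markers at a median of 0.152 and at most 9.07. In OPC-like cells Apoe stood at 0.503 and 0.859, with ependymal markers at medians of 0.153 and 0.112 and at most 0.879 and 0.333. The 2 choroid plexus markers of library 2 reached 1.30 in oligodendrocyte-like and 1.08 in OPC-like cells. Apoe was thus not above every marker in either class. In the tdTomato-positive library, Apoe and Clu stood at 0.167 and 0.125 in microglia-like cells and at 0.186 and 0.136 in endothelial-like cells, while Cst3 stood at 15.7 in microglia-like cells and Sparc at 3.25 and 1.60.

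**Figure D4:**
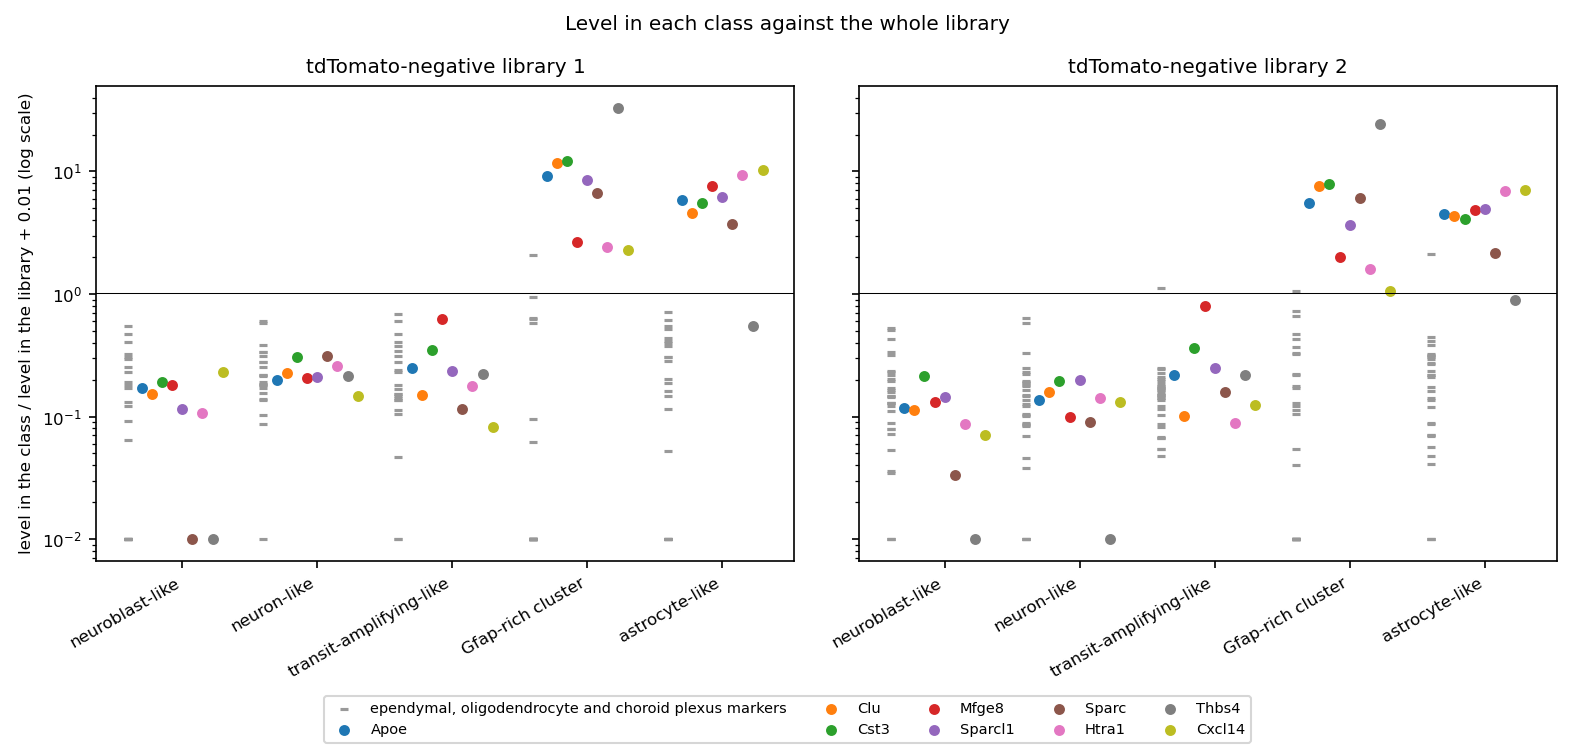
Level in a class divided by the level over all kept cells of the same library (+ 0.01, log scale), for the 9 genes (coloured points) and for ependymal, oligodendrocyte and choroid plexus markers (grey dashes), in the 2 tdTomato-negative libraries. In neuroblast-like cells the 9 genes lie among the grey markers, with medians of 0.144 and 0.104.

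Between the sort gates, the tdTomato-positive library as a whole was higher in Apoe, Clu and Sparc and lower in Mfge8. Apoe was at 6414 CPM against 2899 and 4478 in the tdTomato-negative libraries, Clu at 2149 against 851.8 and 1042, and Sparc at 801 against 51.8 and 105.1. Mfge8 was at 105.5 against 323.9 and 502.5. For all 9 genes the tdTomato-positive value lay outside the range of the other 2 libraries. A lone library can fall outside 2 others by order alone. The share of all genes that did so was not counted, so this describes the 9 genes only. By edgeR's quasi-likelihood test the log2 differences were 0.84 ± 0.32 for Apoe (adjusted p = 0.0234), 1.23 ± 0.31 for Clu (adjusted p = 0.000317), 3.32 ± 0.31 for Sparc (adjusted p = 6.56e-25) and -1.94 ± 0.36 for Mfge8 (adjusted p = 8.3e-07). Thus 3 of 9 genes were higher and 1 lower, where 22.9% and 19% of 10944 genes were (41.8% in all). The test has 1 residual degree of freedom and assumes that the lone tdTomato-positive library varies like the others. Apoe did not pass with DESeq2 (0.89, adjusted p = 0.402), and neither Apoe nor Clu passed without the count filter (edgeR adjusted p = 0.358 and 0.0528).

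The gates held different cells: 177 of the 252 kept tdTomato-positive cells were ependymal-like, against 12 of 256 and 46 of 1121, so the composition and the gate cannot be told apart in those whole-library values. Within ependymal-like cells none of the 8 genes tested differed (edgeR adjusted p = 0.999 for each), where 0.247% of 2021 genes passed (0.148% higher, 0.099% lower). That edgeR fit had 73 genes at an unadjusted p under 0.05, none of them among the 9, and DESeq2 called 0 genes. Apoe there was 6972 against 7052 and 8994, with a log2 difference of -0.10 ± 0.43, and Sparc was 771.8 against 422.7 and 762.7, with 0.35 ± 0.31. With 1 residual degree of freedom the fit rests on few libraries: without tdTomato-negative library 2 the Sparc difference was 1.01, and without library 1 that of Apoe was -0.35, both with no test. The tdTomato-positive value lay below both others for Apoe, Clu and Mfge8, above both for Sparcl1, Sparc and Htra1, and between them for Cst3 and Cxcl14. The share of all genes that lay outside both others was not counted.

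Within astrocyte-like cells Cst3 was lower in the tdTomato-positive library, at 5541 CPM against 16206 and 13448. Its log2 difference of -1.35 ± 0.32 passed (edgeR adjusted p = 0.00445) and was the 1 among 8 genes tested that did, where 0.975% of 718 genes passed (0.557% higher, 0.418% lower). It did not pass without the count filter (edgeR adjusted p = 0.781). Apoe (9914 against 17006 and 20074) and Clu (2337 against 3920 and 4497) were below both other libraries without passing (edgeR adjusted p = 0.297 and 0.334), and passed when the clusters were built on the other set of genes (-0.94 and -0.92, edgeR adjusted p = 2.17e-16 and 0.000655). Those differences were close to the ones with the main clusters (-0.85 and -0.81). Clustering on the other set of genes also changed the cells of the class and the number of genes tested (846 against 718). Why Apoe and Clu passed there was not tested. The tdTomato-positive value rests on 15 cells, whose summed ependymal markers were at 1369 CPM, against 455.5 and 301.0 in the other libraries. In the 15 cells 10 of 14 ependymal markers were detected, and the part of these markers in the result was not tested. A test of the difference between the gate effects in ependymal-like and astrocyte-like cells called 0 of 2028 genes (127 at an unadjusted p under 0.05, edgeR; no other tool was run for it). In it Cst3 gave 1.41 ± 0.42 and Sparc 3.19 ± 0.98, both with an edgeR adjusted p of 0.273.

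**Figure D5:**
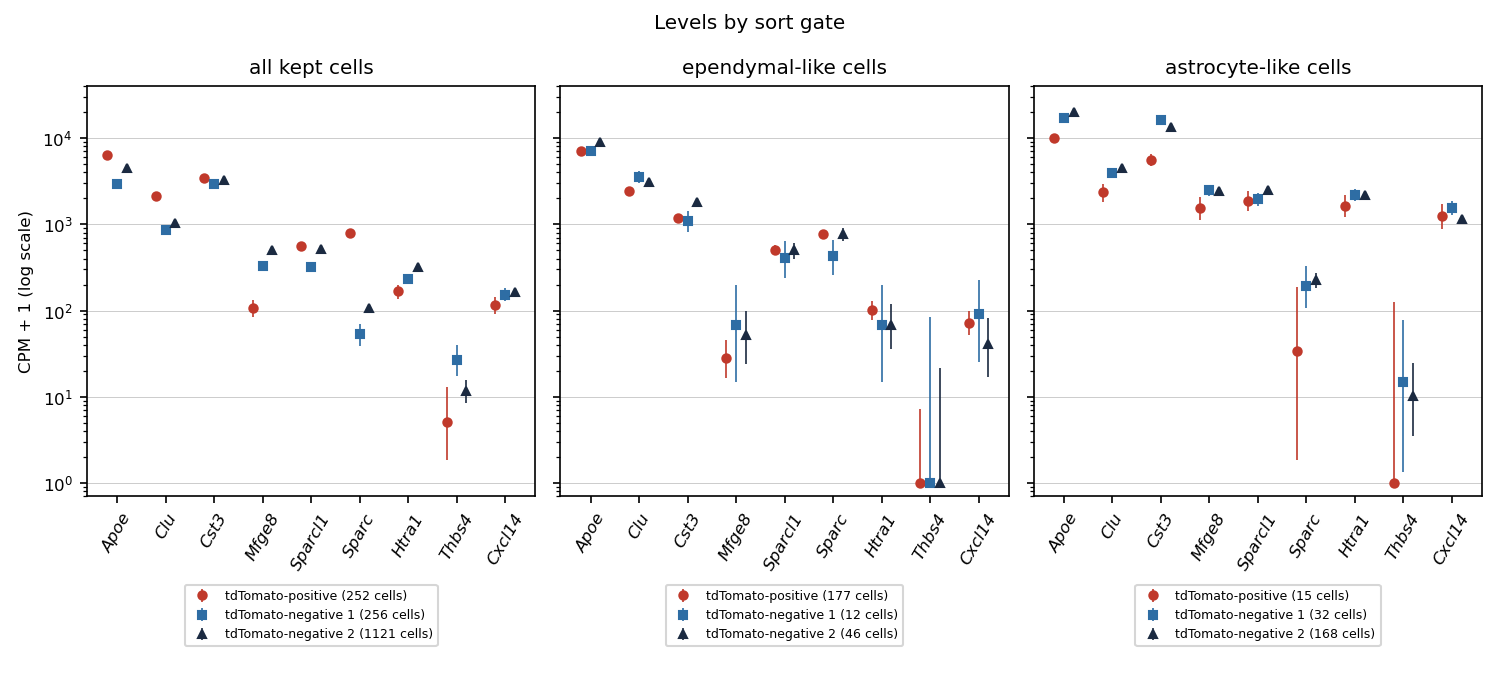
Level of each gene (CPM + 1, log scale) by library in all kept cells, in ependymal-like and in astrocyte-like cells, with exact 95% Poisson intervals. Sparc is far higher in the tdTomato-positive library over all cells (801 against 51.8 and 105.1) and close to tdTomato-negative library 2 in ependymal-like cells (771.8 and 762.7).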

How the data were processed

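Single-cell 3' libraries (10x chemistry) were made from papain-dissociated, FACS-sorted tissue. Whole-number UMI counts per gene and barcode were deposited by the authors without normalization; the submitters' processing notes name Cell Ranger, STAR and Seurat 1.4.0.15 with mm10 and GRCm38.p5, and no filter is given in the sources used here. Here barcodes with at least 300 genes and at most 25% mitochondrial counts were kept. Scrublet marked 9, 2 and 3 cells (3.57%, 0.781% and 0.268%); none was removed in the results as given.

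Cells were clustered with scanpy 1.11.5 (1000 variable genes, 20 components, 15 neighbours, Leiden resolution 1.0) on 14055 genes: those with an even last digit in the Ensembl identifier, plus 191 markers of 13 lists, without the 9 genes and the 143 genes of 7 lists. Tests ran on the other 13943. A cluster was named when a list had the most markers among its 10 leading genes and at least 3 markers were 2-fold higher. Htra1 and Cxcl14 led the astrocyte-like cluster though clustering did not use them. Counts were summed by library and class with at least 10 cells and tested with edgeR 4.0.16 (quasi-likelihood, TMM, Benjamini-Hochberg over all genes tested; R 4.3.3), with DESeq2 1.42.0 as an alternative. Class fits had 18 sums and 7 residual degrees of freedom (20 and 8 with the Gfap-rich cluster), with the library as a block, because the classes of a library come from 1 suspension of cells; fits over gates had 1. Standard errors are approximate, from the fold change and its F statistic. The fits were tested on simulated data.

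The members and lists were chosen with earlier results of these data known. From each list the text may name up to 3 genes that passed in each direction, by fold change, and for each of the 9 genes the 3 closest patterns among genes of at least 50 CPM; a few results of this kind are not reported here. A planned split of the astrocyte-like class by Gfap could not be made, because the cluster with the highest Gfap stayed unnamed; its 2 comparisons, the test between gate effects and the free RNA values of endothelial-like and microglia-like cells were added after seeing the data. Thinning to 1000 UMIs left out 41, 12 and 6 cells. Poisson and exact binomial intervals (95%) and limits from a count of 0 (3 counts) cover counting error only. Gene positions come from GENCODE on GRCm38, and promoters from RefSeq on GRCm38.p6.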

Additional observations from a re-analysis of the deposited data

How the results depend on the processing

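The alternatives were RLE scaling, no count filter, DESeq2, leaving out each library, no replicate block, a stricter cell filter (500 genes, 10% mitochondrial), clustering on odd-digit genes, Leiden resolutions 0.5 and 2.0, and removal of Scrublet calls. Of the counts of members under them 218 stayed within 1.5 times, 13 were smaller and 6 larger. The exceptions follow. Between gates over all cells, 3 higher became 1 without the count filter, and 1 lower became 2 without it, with the stricter cell filter and without Scrublet calls. Between gates in astrocyte-like cells, 1 lower became 0 without the count filter and 3 with odd-digit clustering. Against neuroblast-like cells, 3 higher in transit-amplifying-like cells became 1 with DESeq2 and 1 with no replicate block, 6 in oligodendrocyte-like cells became 3 without Scrublet calls, and 5 in OPC-like cells became 8 with the stricter filter and at resolution 2.0. In the Gfap-rich cluster against astrocyte-like cells 4 higher (Thbs4 among them) became 1 with DESeq2, which gave Thbs4 no adjusted p.

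Leaving out 1 library at a time gave 0 to 4 members higher in transit-amplifying-like, 1 to 6 in oligodendrocyte-like, 2 to 6 in OPC-like, 5 to 7 in ependymal-like, 8 in astrocyte-like and 9 in Gfap-rich cells (Thbs4 among them) against neuroblast-like cells. It gave 1 to 4 higher and 2 to 4 lower in Gfap-rich against astrocyte-like cells, and 5 to 7 lower and 1 higher in ependymal-like against astrocyte-like cells. No paired analysis was possible because the gates share fewer than 2 replicate numbers; leaving out a tdTomato-negative library there leaves no residual degrees of freedom, and gives values with no test.

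Among tested values of single genes, 12 changed sign, and the cause was not tested. Between gates in astrocyte-like cells, Cxcl14 was 0.0041 with RLE scaling. With a tdTomato-negative library left out, the untested gate values of Apoe, Cst3 (0.262) and Cxcl14 in ependymal-like cells and of Cxcl14 and Sparcl1 (0.0614) in astrocyte-like cells changed sign as well. In ependymal-like against neuroblast-like cells, Mfge8 was 0.0102 at resolution 0.5 and ran from -0.169 to 0.157 with 1 library left out, positive without tdTomato-negative library 2. In transit-amplifying-like against neuroblast-like cells, Clu was 0.073 without the count filter and 0.206 at resolution 2.0, and Cxcl14 was -0.0947 with the stricter filter. There, leaving out 1 library gave Htra1 from -0.0019 (tdTomato-negative library 1) to 0.78 and Cxcl14 from -1.51 (library 2) to 0.851. In oligodendrocyte-like against neuroblast-like cells, Sparcl1 was -0.62 and Mfge8 -0.228 without Scrublet calls, and leaving out 1 library gave Sparcl1 from -0.157 (library 2) to 1.72. In Gfap-rich against astrocyte-like cells, leaving out 1 library gave Sparcl1 from -0.58 to 0.224 (library 2).

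Counts over all genes moved by over 1.5 times in some settings. Over gates, 4577 became 1908 with DESeq2; in ependymal-like cells 5 became 0 to 3, and in astrocyte-like cells 7 became 2 to 11. Gfap-rich against astrocyte-like, 183 became 101 without the count filter, 97 with DESeq2, 97 with no replicate block, 280 with odd-digit clustering, 108 and 115 at resolutions 0.5 and 2.0, and 25 and 17 without tdTomato-negative library 1 or 2. Transit-amplifying-like, 538 became 207 with DESeq2, 354 with no replicate block, 853 with the stricter filter and 842 at resolution 0.5. OPC-like, 858 became 563 with DESeq2. Without tdTomato-negative library 1 or 2, the other counts became 573 and 300 (of 1098, ependymal-like against astrocyte-like), and against neuroblast-like cells 470 and 243 (of 1242, astrocyte-like), 571 and 219 (of 1353, ependymal-like), 48 and 16 (transit-amplifying-like), 300 and 45 (of 781, oligodendrocyte-like), 207 and 109 (OPC-like) and 306 and 153 (of 746, Gfap-rich). With RLE scaling the oligodendrocyte-like split of 363 higher and 418 lower became 445 and 336, and the median of all genes moved by 0.23 there, by 0.14 in ependymal-like, 0.12 in astrocyte-like and 0.11 in OPC-like cells, all against neuroblast-like cells.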

Other observations

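Mural-like cells, which wrap small vessels, were 8 cells of the tdTomato-positive library and entered no comparison. Their summed level of Sparcl1 was 1896 CPM, in the range of astrocyte-like cells. Cst3 was at 3919, above the 1807 of endothelial-like cells of the same library. Mfge8 was at 884.8, on 7 UMIs, whereas endothelial-like cells held 58.3 and microglia-like cells had none. Apoe stood on 8 UMIs and Clu on 2 in these cells, and neither Thbs4 nor Cxcl14 was detected.

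The single tdTomato-positive cell in the Gfap-rich cluster held 43 UMIs of Apoe, 27 of Clu, 87 of Cst3 and 16 of Gfap among 2186. Among the 15 astrocyte-like cells of that library, 1 cell held all 33 UMIs of Gfap. Vim, the other glial filament gene counted here, was at 722.5, 511.6 and 593.2 CPM in ependymal-like cells, 344.1 and 307.5 in the Gfap-rich cluster, and 166.9, 69.0 and 49.0 in astrocyte-like cells.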
